A study of Mus musculus with 20 samples.

Results

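The lipoprotein lipases and their regulators were followed as 8 genes of the 27385 that the array names, with 10 probes of the 41174 on it. A probe was taken when the gene name in the scanner file was one of Lpl, Lipc, Lipg, Angptl4, Vldlr, Mttp, Pltp and Lcat, and every such probe was kept. Lpl and Vldlr had 2 probes each and the other 6 genes had 1. Angptl4 is the only angiopoietin-like gene among them, and the other genes of that family are given further on for comparison. Male C57BL/6 mice, aged 5 months, were studied after 6 weeks on a diet with 35% fat, so no animal was on ordinary chow. Wild-type (WT) mice were compared with RORasg/sg mice, called sg/sg here. These are staggerer mice, homozygous for a natural deletion in Rora, which they carry in every cell of the body. Total RNA from liver and from white adipose tissue (WAT) gave 20 arrays, 5 in each of the groups WT liver, sg/sg liver, WT WAT and sg/sg WAT. The fat depot is not named in the labels, and they do not tell whether a liver array and a WAT array of equal number share a mouse.

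Triglyceride travels in blood inside lipoproteins, and the liver builds very low density lipoprotein with the help of the protein made from Mttp. In fat and muscle, lipoprotein lipase (Lpl) splits that triglyceride at the capillary wall, the inhibitor Angptl4 limits it, and the receptor Vldlr binds the particles. Hepatic lipase (Lipc) and endothelial lipase (Lipg) act further on, on remnants and on high density lipoprotein (HDL). Phospholipid transfer protein (Pltp) and lecithin-cholesterol acyltransferase (Lcat) reshape HDL. RORα, the nuclear receptor made from Rora, binds DNA at the hexamer AGGTCA preceded by bases rich in A and T. The comparison asks how these genes stand in liver and fat when that receptor is lost on a high fat diet.

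Sequences of 3 member probes are shown first: that of a lipase called in liver, that of hepatic lipase, which belongs to liver, and that of the gene with the most negative estimate in WAT. Each probe is 60 bases long, and its position is that of the scanner files on mouse build mm7. The probes of Lipc and Pltp span more bases of the genome than they hold, so each joins bases from either side of a gap in the genome. The exon under a probe was not looked up, since no annotation of that build was used here. No base is in capitals in the probes because the whole probe hybridises.
Lpl probe 1, chr8:67355909-67355968, plus strand: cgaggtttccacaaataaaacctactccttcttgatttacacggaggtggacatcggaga
Lipc, chr9:70845219-70848895, minus strand: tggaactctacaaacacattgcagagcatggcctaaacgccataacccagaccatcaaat
Pltp, chr2:164581164-164585120, minus strand: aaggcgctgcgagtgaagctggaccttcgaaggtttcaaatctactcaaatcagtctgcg

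Upstream windows are given for the genes whose level fell in WAT and that had one, and for the gene with a window that held the hexamer. RefSeq windows of assembly GRCm38.p6, 300 bases each, were matched to 5 of the 8 genes and gave 7 windows. AGGTCA was searched on both strands. It stood in 1 of the 7 windows and in 16.255% of all 32851 windows of the same length. Lipc and Vldlr had 2 windows each, numbered by position. The hexamer was in Lipc window 1, and Lipc window 2 held none. The longer ROR response element, searched with either AGGTCA or GGGTCA at its end, stood in 0 of 7 windows and in 0.384% of all. The Pltp window and Vldlr window 1 below therefore carry no capitals, and Vldlr window 2, also without the hexamer, is not printed. Capitals in the stretch of Lipc window 1 mark the hexamer, once on each strand. The hexamer lies at bases -88 to -83 and, reversed, at -76 to -71 from the gene start of that window. A match is a run of letters and not a bound site.
Pltp, chr2:164857709-164857958, minus strand: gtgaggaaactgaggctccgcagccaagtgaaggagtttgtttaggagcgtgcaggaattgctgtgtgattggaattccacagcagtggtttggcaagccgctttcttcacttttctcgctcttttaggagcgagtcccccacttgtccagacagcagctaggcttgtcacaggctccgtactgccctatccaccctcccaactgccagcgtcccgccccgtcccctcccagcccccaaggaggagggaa
Vldlr, chr19:27216234-27216483, plus strand: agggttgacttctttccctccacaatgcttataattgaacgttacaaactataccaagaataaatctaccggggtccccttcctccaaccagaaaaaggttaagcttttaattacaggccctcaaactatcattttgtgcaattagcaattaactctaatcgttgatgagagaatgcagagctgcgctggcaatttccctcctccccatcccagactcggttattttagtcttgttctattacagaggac
Lipc, chr9:70934859-70934918, minus strand: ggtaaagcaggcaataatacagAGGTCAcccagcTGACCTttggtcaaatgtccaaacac

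Levels are log2 of the processed intensity relative to the 75th percentile of each array, so 0 is that percentile. The share of probes clearly above background ran from 57.1% to 63.0% on liver arrays and from 72.5% to 81.5% on WAT arrays. All 3 Rora probes were lower in sg/sg without overlap, by a log2 difference of -2.88 to -2.81 in liver and of -2.75 to -2.72 in WAT. The labels do not place those probes relative to the deletion. Among WAT arrays, WT replicate 2 and sg/sg replicate 4 had the lowest mean correlation with their own group, 0.971 and 0.976. In liver, slide 1 held 4 WT arrays, slide 2 held 1 WT and 3 sg/sg arrays, and slide 3 held 2 sg/sg arrays. In WAT slide 1 held 2 arrays of each genotype, slide 2 held 1 WT and 2 sg/sg arrays, and slide 3 held 2 WT and 1 sg/sg array. A fit within a slide where a genotype has 1 array takes that array to vary like the others. P-values measure the spread between these arrays, 1 per mouse and tissue.

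**Figure D1:**
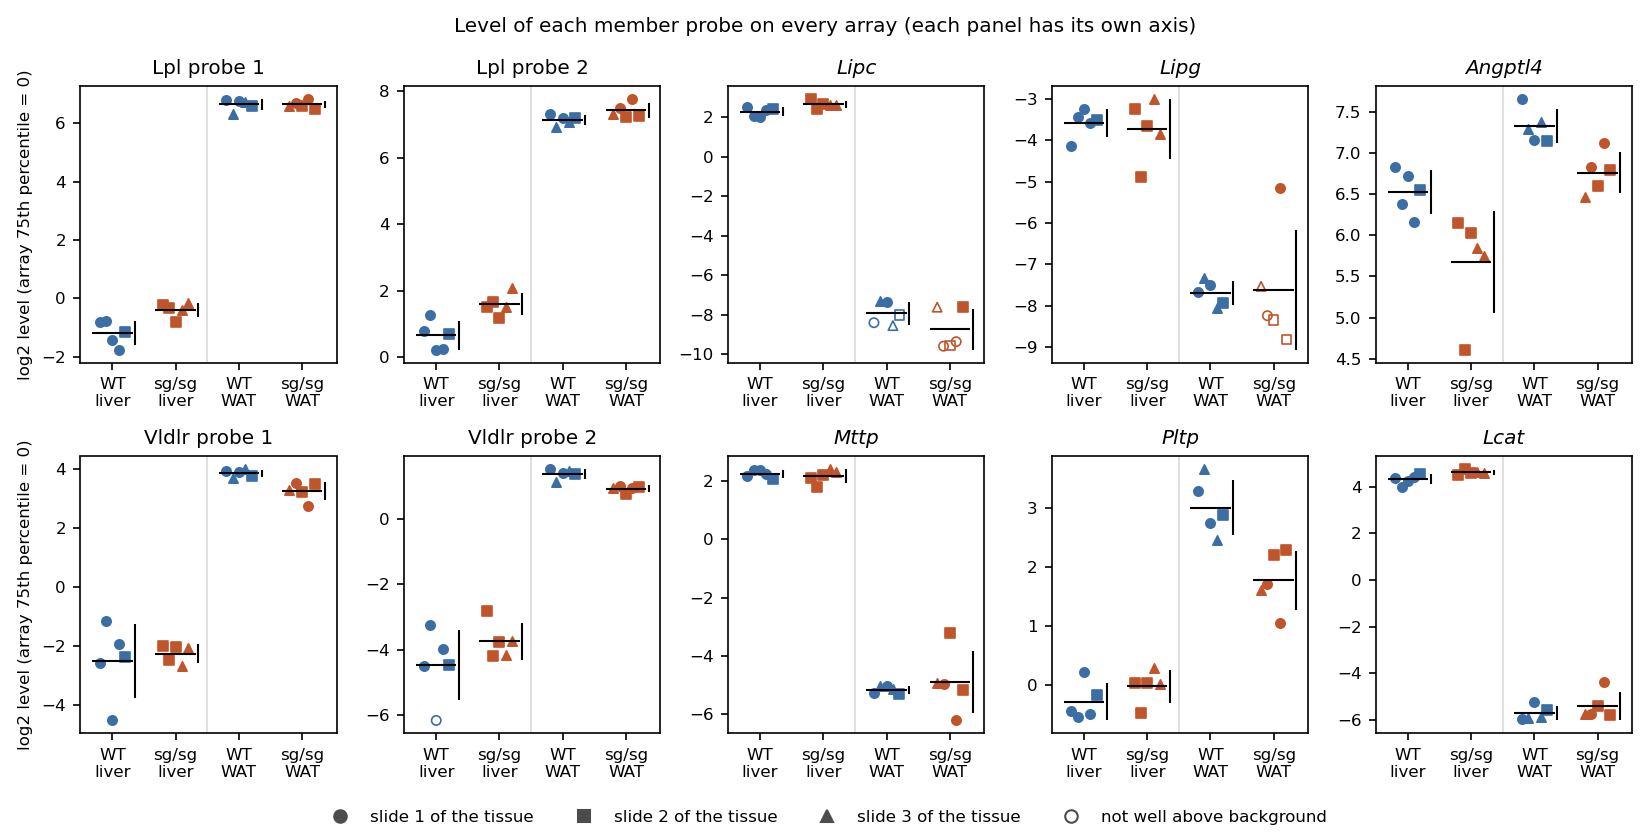
Log2 level of each member probe (array 75th percentile = 0) on every array in the 4 groups, with the group mean as a horizontal bar, the SD as a vertical bar and the slide as the symbol. Each panel has its own axis. Pltp, both Vldlr probes and Angptl4 lie lower in sg/sg WAT without overlap, and Lpl lies higher in sg/sg liver with overlap.

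The lipases and their partners divided sharply between the tissues in WT mice. Both probes of Lpl were brighter in WAT, by a log2 difference of 7.84 (230-fold, SE 0.17) and 6.50 (90.3-fold, SE 0.19). Both Vldlr probes were brighter there as well, by 6.36 (82.3-fold, SE 0.40) and 5.83 (56.7-fold, SE 0.37). Pltp was 9.77-fold brighter in WAT (log2 3.29, SE 0.24) and Angptl4 1.74-fold (log2 0.80, SE 0.23). The liver-directed genes lay on the other side. Lipc was lower in WAT, with a mean of 2.29 in WT liver and of -7.94 in WT WAT, where only 2 of the 5 arrays had it well above background, so no fold is given. Lcat was lower by -10.03 (1047-fold, SE 0.22), Mttp by -7.39 (168-fold, SE 0.33) and Lipg by -4.12 (17.3-fold, SE 0.50). All 10 probes passed the limma test, with adjusted p between 6.09e-18 and 0.00394, 6 of them higher and 4 lower in WAT. Over all probes 74.4% passed, 34.2% higher and 40.2% lower, and 65.7% did not overlap, so a difference between these tissues is common. No slide held both tissues, and tissue and slide cannot be told apart.

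In liver, the sg/sg arrays had a higher level of Lpl, the enzyme that releases fatty acids from circulating triglyceride. Genotype and slide largely cannot be told apart there, since slide 1 held only WT arrays and slide 3 only sg/sg arrays. With slide as a fixed block 3 of all 24675 probes were called, against 3601 without it. Of the 10 member probes, the 2 Lpl probes were called higher and none was called lower. The 8 other probes did not pass, and Angptl4 came close from the other side. Over all 24675 probes tested in liver, 14.6% were called, 8.1% higher and 6.49% lower, so 2 of 10 is near the background. With each array scaled to its median in place of its 75th percentile, the liver calls over all probes shifted from 1999 higher and 1602 lower to 865 higher and 2291 lower.

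Lpl probe 1 read -0.83, -0.79, -1.44, -1.77 and -1.16 in the WT livers, replicates 1 to 5 in order. In the sg/sg livers it read -0.24, -0.35, -0.80, -0.41 and -0.17. The groups just overlapped, since sg/sg replicate 3 lay level with the highest WT livers. The log2 difference, sg/sg minus WT, was 0.80 (SE 0.20, 1.75-fold, n = 5 and 5, limma adjusted p = 0.0258). Lpl probe 2 read 0.80, 1.27, 0.22, 0.25 and 0.69 in WT, against 1.51, 1.66, 1.18, 1.50 and 2.09 in sg/sg. Here too the lowest sg/sg liver, replicate 3, lay below the highest WT liver, replicate 2. Its difference was 0.94 (SE 0.22, 1.92-fold, limma adjusted p = 0.0231), close to that of probe 1.

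Both Lpl calls were lost without WT replicate 3 (limma adjusted p = 0.0618 and 0.0557) and without WT replicate 4 (0.0545 and 0.0597), and that of probe 1 also without sg/sg replicate 5 (0.0551). Within slide 2, the only one with both genotypes, the differences were 0.69 and 0.76, from 1 WT and 3 sg/sg arrays. With slide as a fixed block neither Lpl probe was called. That estimate rests on the same arrays of slide 2, so it is no separate check of the size.

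Macrophages and adipocytes are known sources of Lpl, so their markers are set beside it. In liver 5 of 9 macrophage markers were called higher in sg/sg and 0 lower, with C1qa at 0.80 (SE 0.17, limma adjusted p = 0.0169) and C1qc at 0.60 (SE 0.14, adjusted p = 0.0246), both genes of the first complement component. Their summed level, in units of the array's 75th percentile, ran from 64.3 to 115 in WT and from 111 to 134 in sg/sg livers. Of 5 markers of Kupffer cells, the resident macrophages of liver, 0 were called, with sums of 57.9 to 102 and 70.3 to 149. Their median difference was still 0.54, against 0.52 for the macrophage markers and 0.04 for all genes. Endothelial markers moved too, 3 of 8 being higher, among them Egfl7 at 0.57 (SE 0.09, limma adjusted p = 0.00802) and Cldn5 at 0.60 (SE 0.11, adjusted p = 0.0113), with sums of 13.0 to 17.6 in WT and 18.1 to 21.6 in sg/sg. Of the 5 adipocyte markers measured, 2 were lower in sg/sg liver, Cfd at -6.32 (SE 0.85, limma adjusted p = 0.00448) and Cidec at -3.42 (SE 0.69, adjusted p = 0.0154). Fabp4 at -0.09, Lipe at -0.17 and Pparg at -0.89 were not called (limma adjusted p = 0.815, 0.306 and 0.0671). The sums of the 5 markers ran from 11.02 to 54.2 in WT and from 8.02 to 11.6 in sg/sg. Adipoq, Lep, Plin1, Retn and Adrb3 were too dim in liver to be tested. Whether any of these cell types had a part in the Lpl difference was not tested. In whole tissue, fewer cells of a type and less RNA per cell cannot be told apart.

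**Figure D2:**
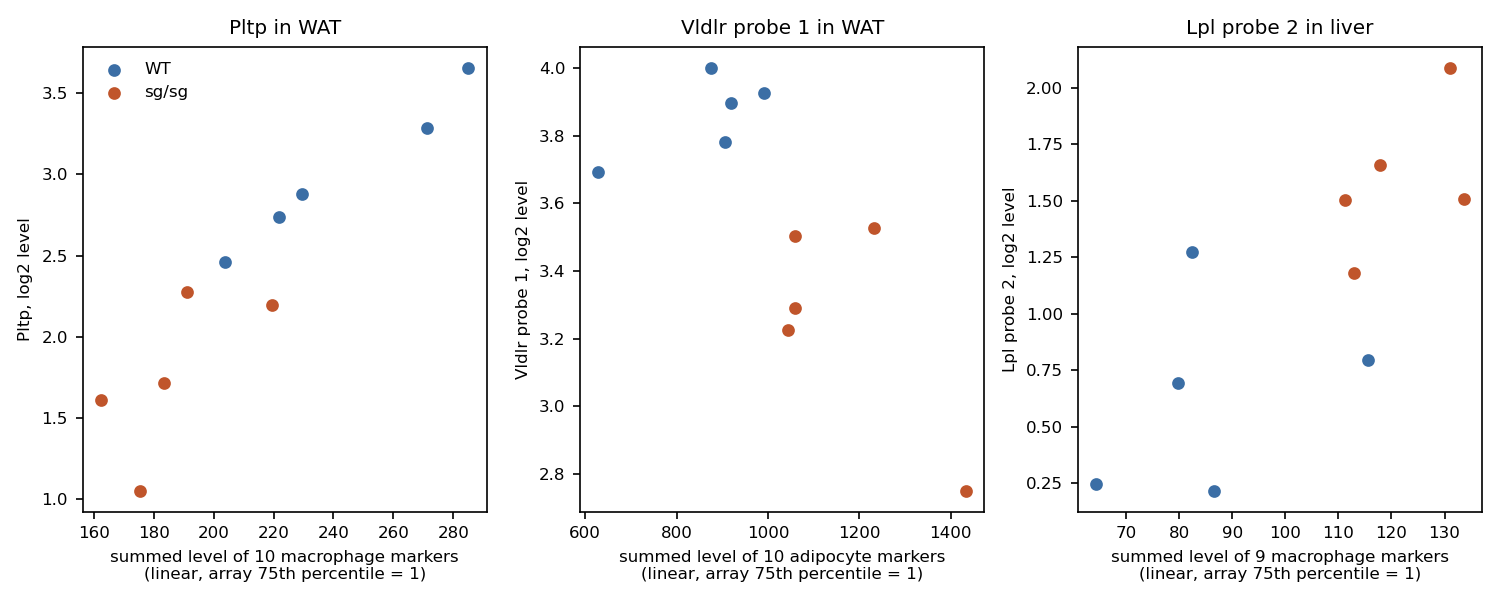
Log2 level of Pltp in WAT, of Vldlr probe 1 in WAT and of Lpl probe 2 in liver on each array, against the summed level of the macrophage or adipocyte markers of the same array (linear, array 75th percentile = 1). The 5 sg/sg WAT arrays lie at macrophage sums of 162 to 219 with Pltp at or below 2.28, and the 5 WT arrays at 204 to 285 with Pltp at or above 2.46.

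Hepatic lipase, the liver's own member of the family, was not called. Lipc read 2.54, 2.07, 2.02, 2.38 and 2.42 in WT livers and 2.94, 2.41, 2.65, 2.59 and 2.63 in sg/sg livers. Most sg/sg livers lay above most WT livers, with overlap, and the log2 difference of 0.36 (SE 0.13, 1.28-fold) had a limma adjusted p of 0.0844. Endothelial lipase, which acts on the phospholipids of HDL, ranged from -4.14 to -3.23 in WT and from -4.88 to -2.99 in sg/sg livers. For Lipg the difference was -0.14 (SE 0.32, limma adjusted p = 0.787), with a 95% interval from -0.85 to 0.56, so neither direction was resolved.

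Angptl4, the secreted inhibitor of lipoprotein lipase and a well known target of PPAR receptors, read 6.83, 6.38, 6.72, 6.16 and 6.55 in WT livers. In sg/sg livers it read 6.15, 4.61, 6.03, 5.84 and 5.75. Every sg/sg liver lay below every WT liver, and sg/sg replicate 2 lay far below its own group. This was the only member probe in liver whose groups did not overlap, against 12.2% of all probes. The log2 difference was -0.85 (SE 0.27, 1.80-fold lower), and its limma adjusted p of 0.0559 missed the threshold. Without sg/sg replicate 2 the difference was smaller and passed, at -0.58 (SE 0.15, adjusted p = 0.0379). It was also called with each array scaled to its median (-0.96, adjusted p = 0.0433), with normexp background correction (-0.99, 0.0181), with a stricter filter on dim probes (0.0453) and with all 20 arrays in a single fit (0.0179). Angptl4 was not called with slide as a fixed block, and without WT replicate 3 its adjusted p was 0.115. Within slide 2 the difference was -0.95, from 1 WT array and 3 sg/sg arrays that include the low replicate 2.

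The remaining liver genes lay closer to WT. Mttp, which loads lipid onto apolipoprotein B, ran from 2.07 to 2.37 in WT and from 1.79 to 2.40 in sg/sg livers, a difference of -0.08 (SE 0.12, 95% interval -0.35 to 0.19, limma adjusted p = 0.682). Lcat, the enzyme that esterifies cholesterol on HDL, ran from 3.99 to 4.56 in WT and from 4.48 to 4.76 in sg/sg, a difference of 0.30 (SE 0.11, adjusted p = 0.0863). Pltp ran from -0.54 to 0.22 and from -0.47 to 0.29, a difference of 0.26 (SE 0.17, adjusted p = 0.323). Hepatocytes are the main source of Lipc, Lcat and Mttp. Of 9 hepatocyte markers 2 were higher in sg/sg liver, Tat at 0.88 (SE 0.16, limma adjusted p = 0.0118) and Fgb at 0.38 (SE 0.09, adjusted p = 0.022), with sums of 2388 to 3160 in WT and 3215 to 3859 in sg/sg. Their part in the values of Lipc, Lcat and Mttp was not tested. Vldlr was dim in liver and scattered. Its probe 1 ran from -4.52 to -1.14 in WT and from -2.68 to -1.98 in sg/sg, with a difference of 0.25 (SE 0.50, adjusted p = 0.76). Probe 2 ran from -6.15 to -3.24 and from -4.20 to -2.81, with a difference of 0.73 (SE 0.47, adjusted p = 0.309). The lowest WT value of both probes came from replicate 3, where probe 2 was not well above background.

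In WAT other members were called. Pltp, Vldlr and Angptl4 fell in sg/sg mice, by 1.36-fold to 2.35-fold, while neither probe of Lpl passed. Of 9 member probes tested, 4 were called lower and 0 higher, and those 4 were also the ones whose groups did not overlap. Over all 32315 probes tested in WAT, 21.9% were called, 12.8% higher and 9.14% lower, and 20.8% did not overlap.

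Pltp moves phospholipid from triglyceride-rich particles to HDL. It read 3.28, 3.66, 2.74, 2.46 and 2.88 in WT fat and 1.61, 1.72, 2.20, 1.05 and 2.28 in sg/sg fat. The highest sg/sg array lay just under the lowest WT array, and the values spread widely within both genotypes. Pltp fell by 1.23 on the log2 scale (2.35-fold, SE 0.28, limma adjusted p = 0.0121). The extremes were the arrays that stood apart, WT replicate 2 and sg/sg replicate 4, and without both the difference was -0.89 (SE 0.22, adjusted p = 0.017). Within slides 1, 2 and 3 it was -1.63, -0.64 and -1.45. A fit within a slide holds 3 or 4 arrays, and within slide 1 0 of all 32315 probes were called. Such fits therefore give sizes and cannot tell a called probe from the rest. With normexp background correction the Pltp difference was -1.32 and not called (adjusted p = 0.0518).

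Vldlr, a receptor for particles rich in apolipoprotein E, was lower with both probes. Probe 1 read 3.93, 3.69, 3.90, 4.001 and 3.78 in WT fat and 3.29, 3.53, 3.22, 2.75 and 3.50 in sg/sg fat. The WT arrays lay close together, and sg/sg replicate 4 was lowest. Probe 1 fell by 0.60 (1.52-fold, SE 0.15, limma adjusted p = 0.0186). Probe 2 read 1.50, 1.10, 1.38, 1.44 and 1.36 in WT, against 0.93, 0.999, 0.74, 0.94 and 0.95 in sg/sg. Its groups were narrow and separate, and it fell by 0.45 (1.36-fold, SE 0.10, limma adjusted p = 0.0123). Without the 2 arrays that stood apart both probes gave -0.52 (SE 0.10 and 0.08, adjusted p = 0.00604 and 0.00317). Within slides 1, 2 and 3 probe 1 gave -0.77, -0.42 and -0.56 and probe 2 gave -0.47, -0.52 and -0.34, each from 3 or 4 arrays. Probe 1 was not called after normexp correction (limma adjusted p = 0.128) or with all 20 arrays in a single fit (0.299), and probe 2 not with median scaling (0.0688) or in that single fit (0.413).

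Angptl4 read 7.66, 7.29, 7.16, 7.38 and 7.15 in WT fat and 6.46, 6.83, 6.59, 7.13 and 6.79 in sg/sg fat. The gap was narrow, since sg/sg replicate 4 lay just under the lowest WT arrays. Angptl4 fell by 0.57 (1.48-fold, SE 0.15, limma adjusted p = 0.0222). Without the 2 arrays that stood apart it was -0.67 (SE 0.14, adjusted p = 0.01), and within slides 1, 2 and 3 it was -0.43, -0.46 and -0.87, each from 3 or 4 arrays. The call was lost when WT replicate 1, WT replicate 4, sg/sg replicate 1 or sg/sg replicate 3 was left out (limma adjusted p = 0.0522, 0.0503, 0.0506 and 0.0556), with median scaling (0.0634) and with all 20 arrays in a single fit (0.0788).

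Lpl itself, the enzyme on which fat depends for uptake from lipoproteins, gave no call. Probe 1 read 6.80, 6.32, 6.76, 6.73 and 6.61 in WT fat and 6.60, 6.69, 6.60, 6.85 and 6.49 in sg/sg fat. The groups lay on each other, and the 95% interval of the difference, -0.26 to 0.26, holds changes of either sign up to that size. Probe 2 read 7.32, 6.93, 7.19, 7.08 and 7.19 in WT, against 7.33, 7.51, 7.24, 7.78 and 7.27 in sg/sg, with 1 high array, sg/sg replicate 4. Its difference was 0.28 (SE 0.13, limma adjusted p = 0.141).

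The other members were dim in fat. Lipc was well above background on 3 of the 10 WAT arrays, WT replicates 2 and 3 and sg/sg replicate 5, and was not tested. Lipg was well above background in 5 of 5 WT and in 1 of 5 sg/sg arrays. The WT values of Lipg ran from -8.05 to -7.32, and the single measured sg/sg array, replicate 4, read -5.14 while the other sg/sg arrays ran from -8.81 to -7.53. The difference of 0.08 (SE 0.59, limma adjusted p = 0.945) turned to -0.54 (SE 0.25, adjusted p = 0.137) without that array. Mttp ran from -5.30 to -5.02 in WT and from -6.21 to -3.22 in sg/sg fat (difference 0.26, SE 0.43, adjusted p = 0.717). Lcat ran from -5.97 to -5.25 and from -5.80 to -4.37 (difference 0.30, SE 0.28, adjusted p = 0.485). In both genes a single sg/sg array, replicate 3 for Mttp and replicate 4 for Lcat, stood above the rest. Hepatocyte markers in WAT summed to between 1.01 and 10.3 in WT, highest in replicate 3, and to between 1.43 and 6.96 in sg/sg, highest in replicate 5, with 0 of 7 called. On those arrays Mttp read -5.02 and -5.15 and Lcat -5.25 and -5.80.

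Cell type markers also differed between genotypes in fat. Of 10 macrophage markers 7 were lower in sg/sg and 0 higher, among them the mannose receptor Mrc1 at -0.74 (SE 0.12, limma adjusted p = 0.00245) and the integrin Itgam at -1.30 (SE 0.22, adjusted p = 0.00298). Their summed level ran from 204 to 285 in WT and from 162 to 219 in sg/sg. Of 10 adipocyte markers 4 were higher, such as Pparg at 0.86 (SE 0.15, limma adjusted p = 0.00328) and the droplet coat gene Plin1 at 0.66 (SE 0.14, adjusted p = 0.00853), and 1, Lep, was lower. The adipocyte sum ran from 629 to 991 in WT and from 1045 to 1434 in sg/sg. Of 7 stromal markers 4 were lower, such as the collagen gene Col1a1 at -0.84 (SE 0.16, limma adjusted p = 0.00567), with sums of 311 to 388 and 257 to 329. Of 4 mesothelial markers 3 were higher, such as Wt1 at 1.04 (SE 0.24, limma adjusted p = 0.0132), with sums of 6.04 to 25.9 and 20.3 to 31.5. Pltp is known to be made by macrophages as well as by other cells, and between the genotypes its lower level went with a lower macrophage sum. Among WT arrays Pltp and that sum had the same order. Among sg/sg arrays they did not: Pltp was 1.61 at the lowest sum, 162 in replicate 1, and 1.05 at 175.5 in replicate 4. The brightest of these markers, Lyz2, weighs most in the sum and was not called (mean 6.88 in both genotypes, limma adjusted p = 0.99). Between the genotypes, Vldlr and Angptl4, both made by adipocytes, were lower where the adipocyte sum was higher. Within a genotype there was no such common order. The sg/sg array of highest adipocyte sum, replicate 4 at 1434, had the highest sg/sg value of Angptl4 (7.13) and the lowest of Vldlr probe 1 (2.75). The part of these cell types in the Pltp, Vldlr and Angptl4 results was not tested.

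**Figure D3:**
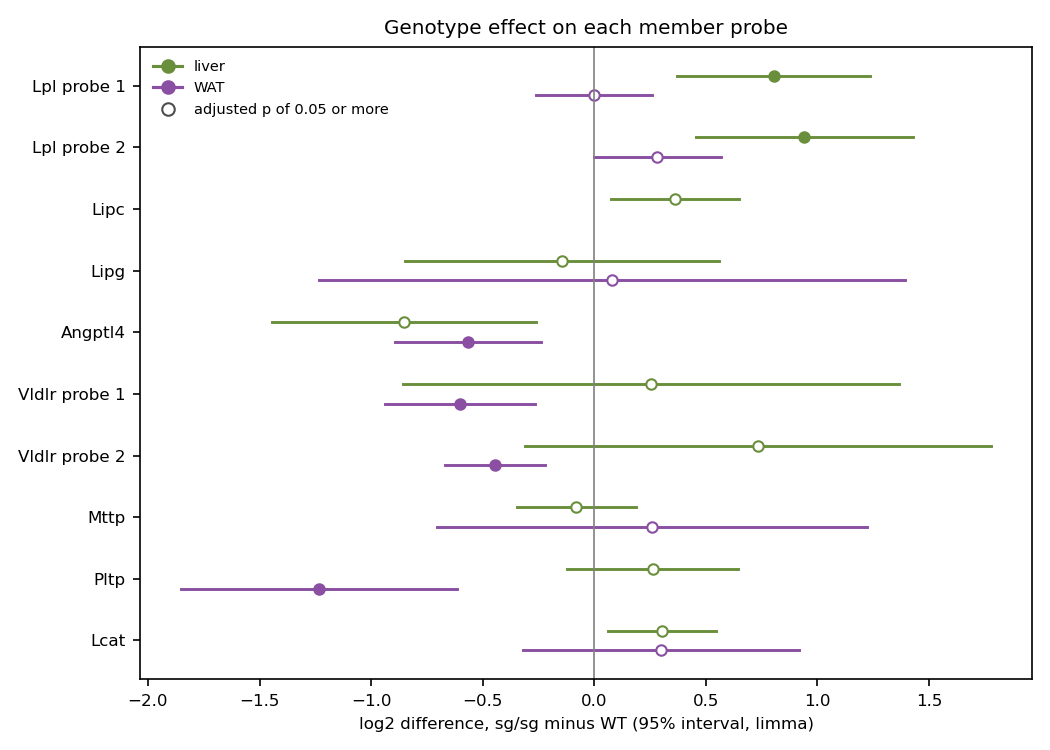
Genotype effect on each member probe in liver and WAT, as the log2 difference sg/sg minus WT with its 95% interval from limma. Filled points have an adjusted p under 0.05. Both Lpl probes are filled in liver and open in WAT, and Pltp at -1.23 in WAT has the most negative estimate of the 19 shown.

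The difference between the tissues was tested directly, as the WAT effect minus the liver effect. Of 9 member probes, 2 passed, both negative, against 19.9% of all 24344 probes tested, 10.5% positive and 9.38% negative. Over all probes 2550 were positive and 2284 negative, and 2892 and 1533 with median scaling. Pltp gave -1.49 (SE 0.34, limma adjusted p = 0.00449): it fell in fat, and its estimate in liver was 0.26. Lpl probe 1 gave -0.81 (SE 0.23, limma adjusted p = 0.0202), while probe 2 gave -0.66 (SE 0.26, adjusted p = 0.0829) and did not pass. For Angptl4, with negative estimates in both tissues, the difference between the effects was 0.29 (SE 0.32, 95% interval -0.38 to 0.95, adjusted p = 0.566). Both Vldlr probes had negative estimates, -0.86 and -1.18, with SE of 0.55 and 0.51 and adjusted p of 0.293 and 0.11. With slide as a block neither Pltp (-1.33, adjusted p = 0.186) nor Lpl probe 1 (-0.70, 0.356) passed, and Lpl probe 1 was also lost with median scaling (0.0845).

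The genes whose profiles over the arrays lay nearest to the leading member of each tissue were found by the root mean square difference of centred log2 values. For Lpl probe 2 over the 10 liver arrays these were Isyna1 (0.20), Rgs5 (0.22), Icam1 (0.22), Myo1f (0.22) and Fam111a (0.23), where the Lpl profile itself had a root mean square of 0.58. For Pltp over the 10 WAT arrays they were Cd48 (0.11), Qpct (0.11), Tnfaip8l2 (0.12), Ms4a6c (0.14) and Rgs18 (0.15), against 0.75 for the Pltp profile. These likenesses include the genotype difference itself.

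Other genes of the pathway were counted with 1 probe per gene, the brightest. On that basis 15.5% of all 16607 genes were called in liver, 8.68% higher and 6.77% lower, and 23.2% of 21245 in WAT, 13.8% higher and 9.4% lower. The median log2 difference of all genes was 0.04 in liver and 0.09 in WAT.

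The partners that carry and hold lipoprotein lipase showed few calls. Of 5 measured, 0 were called in liver (median difference 0.18), and 1 was lower in WAT (median 0.01), the heparan sulfate proteoglycan Sdc1 at -0.76 (SE 0.21, limma adjusted p = 0.0277). Among other angiopoietin-like genes, 1 of 4 was called higher in liver (median 0.13), Angptl7 at 0.82 (SE 0.18, adjusted p = 0.0191). In WAT 1 of 5 was called lower (median -0.60), Angptl1 at -1.05 (SE 0.22, limma adjusted p = 0.00873). Of 5 proprotein convertases, the family whose members cut lipases and angiopoietin-like proteins, only Pcsk7 was called, in liver, at 0.26 (SE 0.07, limma adjusted p = 0.0325). The medians of that list were 0.26 in liver and 0.18 in WAT.

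Of 11 apolipoproteins, 0 were called in liver (median 0.15). In WAT Apoe, a ligand of Vldlr, rose by 0.41 (SE 0.10, limma adjusted p = 0.0142) and Apoc4 fell by 1.33 (SE 0.42, adjusted p = 0.0457), with a median of -0.17. Of 5 genes of particle assembly, 0 were called in either tissue (medians -0.03 and -0.23). Among other lipoprotein receptors and the proteins that act on them, 0 of 4 measured were called in liver (median -0.02) and 1 of 6 in WAT (median 0.03). There Lrp8, a near relative of Vldlr, fell by 0.83 (SE 0.23, limma adjusted p = 0.0285). Lrp8 was dim in fat, with means of -6.13 in WT and -6.96 in sg/sg, where 4 of 5 arrays were well above background.

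Of 5 other genes of HDL remodelling, 2 were higher in liver (median 0.34): the HDL receptor Scarb1 at 0.50 (SE 0.13, limma adjusted p = 0.0321) and Pla2g7, a phospholipase carried on lipoproteins, at 0.76 (SE 0.16, adjusted p = 0.0161). In WAT 2 were lower and 1 higher (median -0.02). Pla2g7 fell there by 1.74 (SE 0.25, limma adjusted p = 0.00175) and the cholesterol exporter Abcg1 by 0.95 (SE 0.24, adjusted p = 0.021), while the HDL-bound enzyme Pon1 rose by 2.98 (SE 0.49, adjusted p = 0.00287).

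Nuclear receptors and other transcription factors known to act on these genes were the last list. In liver 2 of 11 were higher and 1 lower (median 0.04). Ppara, the receptor of fatty acids that is known to drive Angptl4, fell by 0.65 (SE 0.13, limma adjusted p = 0.0131). The oxysterol receptors Nr1h2 and Nr1h3, known to act on Pltp and Lpl, rose by 0.36 each (SE 0.07 and 0.09, adjusted p = 0.0158 and 0.0251). In WAT 4 of 12 were higher and 0 lower (median 0.31), namely the coactivator Ppargc1a by 1.58 (SE 0.20, limma adjusted p = 0.00119), Srebf1 by 0.90 (SE 0.15, adjusted p = 0.00344), Pparg by 0.86, given above among the adipocyte markers, and Ppara by 0.73 (SE 0.13, adjusted p = 0.0041).

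**Figure D4:**
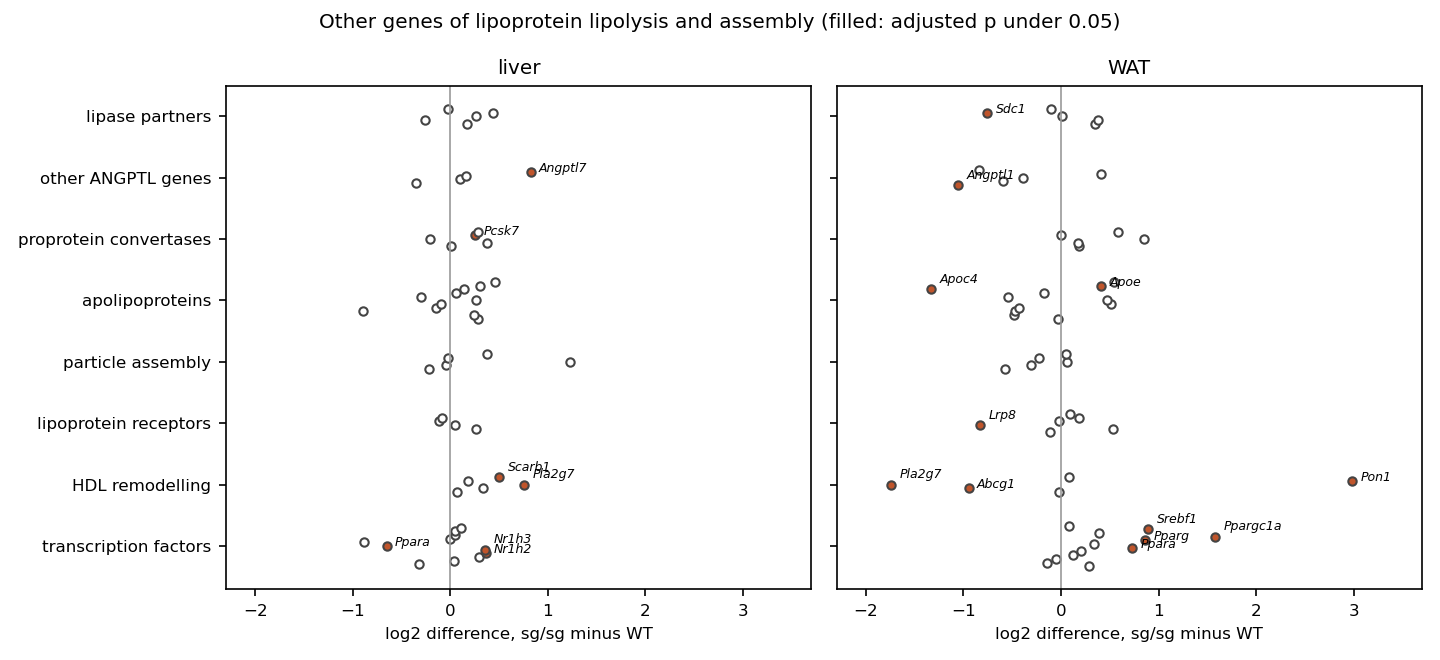
Log2 difference, sg/sg minus WT, of the other genes of lipoprotein metabolism in liver and in WAT, grouped by list, 1 point per gene. Filled points with a name have an adjusted p under 0.05, from Pla2g7 at -1.74 to Pon1 at 2.98, both in WAT.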

How the data were processed

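Single-colour (Cy3) arrays were measured for 5 WT and 5 sg/sg mice in each tissue. Per the file headers, the authors extracted intensities with Agilent Feature Extraction, version 9.5 in the submitters' processing notes, with probe positions on build mm7; no scaling between arrays is recorded there. The deposited value table holds linear intensities, not centred and equal to the processed signals (highest relative difference 0), with column medians from 42.5 to 220.8, so it was no independent source. Arrays give no counts, and the number of arrays limits the precision.

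Processed intensities as deposited were put on the log2 scale and the array's 75th percentile was subtracted. Control spots were dropped, spots flagged as outliers became missing values, and repeat spots were averaged per probe. A tested probe was well above background on 4 or more of the 10 arrays of a tissue, with at most 2 values missing. Genotypes were compared per tissue with limma 3.58.1 (R 4.3.3), with 2-sided p-values adjusted by Benjamini-Hochberg across all probes and a threshold of 0.05. The effect difference and the WT tissue difference used all 20 arrays. The 95% intervals come from those fits. Fits were tested on simulated data, with 100 probes changed by log2 0.5 and 100 by log2 1. Of the larger changes 73% were called in liver and 50% in WAT, and of the smaller 27% and 7%. Far fewer probes were changed there than were called in these data, so those shares may not carry over. Probe names were updated by accession for 22944 probes and by synonym for 3108, and 14837 kept the file's name; of the member probes only Vldlr probe 2 kept it. Named genes were all members, up to 3 called genes of each pathway list and 2 of each marker list with the smallest p, and 5 genes of like profile. Ppara in WAT and Lep were added after their values were seen. A few pathway genes are not reported here and were left out of their list. Members, lists and rules were chosen with earlier results of these data known. Alternatives covered scaling, background correction, filters, outlier spots, probe choice, slide, replicate number, the samples in the fit and leaving out each array. Leaving out both WAT arrays of lowest correlation was added after seeing the data.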

Additional observations from a re-analysis of the deposited data

Results flagged for a closer look

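Within the 4 groups, 40 sets of 5 arrays (10 probes in 4 groups) were examined for an array far from the others by Dixon's ratio, which chance alone exceeds in about 1 set in 20, and 3 sets exceeded it. Angptl4 read 4.61 in sg/sg liver replicate 2, below the next sg/sg liver at 5.75. Vldlr probe 2 read 0.736 in sg/sg WAT replicate 3, where the next array read 0.93. Lcat read -4.37 in sg/sg WAT replicate 4, above the next array at -5.39.

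For 2 of 9 member probes the genotype effect differed between the tissues by the limma interaction test, which 19.9% of all probes passed. The WAT effect minus the liver effect was -1.49 for Pltp (adjusted p = 0.00449) and -0.806 for Lpl probe 1 (adjusted p = 0.0202), while Lpl probe 2 did not pass (-0.66, adjusted p = 0.0829). With slide as a fixed block neither passed (adjusted p = 0.186 and 0.356). Every sg/sg WAT array of Pltp lay below every WT array, whereas the groups overlapped in liver.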

How the results depend on the processing

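The fits that each leave out 1 array were summarised, for each probe and comparison, by their lowest and highest estimate. Of 536 values of single probes counted in that way under the alternatives, 466 kept their direction and their side of the threshold, 33 lost the call, 13 gained it and 24 changed sign. All 10 WT tissue differences were called under every alternative run. Of the member probes, 2 were called in liver, 4 with normexp correction and 1 with a single probe per gene. The count was 0 without the filter on dim probes and with slide as a fixed block, and leaving out 1 array gave 0 to 3. Over all probes the liver calls moved too, from 3601 to 4730 with normexp correction and to 3 with slide as a fixed block. They were 2778 of 16752 with a single probe per gene and 1158 to 4106 without 1 array. Without the filter more probes shared the adjustment (1236 of 41165 called). In WAT 4 were called, 2 with median scaling, 2 with normexp correction, 1 with all 20 arrays in 1 fit and 0 within slide 1. Over all probes the WAT calls were 7083, with 5705 under median scaling, 1492 under normexp correction, 7981 in the single fit and 0 within slide 1. The slides hold 3 or 4 arrays, and slides 2 and 3 hold 1 array of a genotype, so only sizes are given for them. Between the tissues 2 were called, 4 with normexp correction, 1 with median scaling, 1 with a single probe per gene and 0 with slide as a fixed block. Leaving out WT liver replicate 2 gave 4. Over all probes those calls were 4834, with 2705 under normexp correction, 4425 under median scaling and 770 with slide as a fixed block. They were 3597 of 16547 with a single probe per gene and 4827 without WT liver replicate 2. The cause of these changes was not tested.

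Replicate numbers did not pair the arrays: deviations of same-numbered WT and sg/sg arrays correlated between -0.112 and 0.165 in liver and between -0.135 and 0.0863 in WAT. With the replicate number as a block, 2 member probes were called in liver, 1 in WAT (Pltp, adjusted p = 0.0277) and 2 between the tissues.

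Median scaling moved the median liver difference of all probes from 0.04 to -0.07. It moved the median difference between the effects from 0.03 to 0.14. Normexp correction moved the median WAT difference from 0.08 to 0.49.

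Signs turned in 24 of these values, none of them called; of the single fits without 1 array, up to 9 of 20 turned between the tissues (Lcat) and up to 6 of 10 in WAT (Lpl probe 1). In liver, Lipg was 0.0832 with normexp correction. Leaving out 1 array gave -0.33 to 0.15 for Lipg, -0.25 to 0.60 for Vldlr probe 1 and -0.14 to 0.0121 for Mttp. In WAT, Lpl probe 1 was 0.0041 with median scaling, 0.0739 within slide 3 and -0.0818 to 0.0385 with 1 array left out, and Lpl probe 2 was -0.0438 after quantile normalization. Lipg in WAT was -0.65 within slide 2, -0.45 without both arrays of lowest correlation and -0.54 to 0.38 without 1 array. Mttp was -0.43 within slide 1 and -0.16 to 0.59 without 1 array, and Lcat -0.019 within slide 2 and -0.0108 without both arrays. Between the tissues, Lipg was -0.30 without both arrays and -0.39 to 0.52 without 1, Angptl4 -0.22 after quantile normalization and Mttp -0.0784 to 0.67 without 1. Lcat was 0.11 with median scaling, 0.82 with normexp correction, 0.21 with slide as a fixed block, 0.0045 as a random block and -0.26 to 0.12 without 1 array. Lipc and Lipg in WAT were limited by signal near background.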
